A study of Homo sapiens with 4 samples.

Results

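Superoxide dismutases and the enzymes that clear the peroxide they make were followed through APC knockdown in HCEC 1CT cells, a human colonic epithelial progenitor line immortalised with TERT and CDK4. The set was named by 10 gene symbols (SOD1, SOD2, SOD3, CAT, GPX1, GPX3, GPX4, PRDX1, PRDX4 and PRDX6), of which 9 were analysed among the 33538 genes of the count matrices. GPX1 was not analysed here. The set was chosen with SOD3 already known to be far lower in 1 of the libraries at day 7, so the levels of the 9 genes in these libraries are a description. Cells carried 1 hairpin RNA that targets APC (shAPC) or, as control, a scrambled hairpin (shScr). They were selected with puromycin and harvested 3 and 7 days after transduction. Both arms grew in the same medium with EGF, hydrocortisone, insulin, transferrin, serum and sodium selenite, the selenium source that glutathione peroxidases need. APC, the tumour suppressor that restrains Wnt signalling, is wild type in this line. The virus is retroviral in the labels and lentiviral in the methods, and the 10x Genomics kit is v2 in the labels and V3 in the methods. Each of the 4 groups held 1 library (both hairpins at both days), so differences carry no replicate check, no test was run, and every interval is a 95% interval for counting error only.

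Superoxide is formed when oxygen takes up a single electron, mostly as a by-product of respiration and from NADPH oxidases. Superoxide dismutases turn it into hydrogen peroxide in separate places: SOD1 (copper and zinc) in the cytosol, SOD2 (manganese) in the mitochondrial matrix, and SOD3 (copper and zinc) as a secreted enzyme that binds heparan sulfate at the cell surface and in the matrix. Peroxide is then removed by catalase in peroxisomes, by selenium-containing glutathione peroxidases that spend glutathione, and by peroxiredoxins, most of which spend thioredoxin. In the colonic epithelium these enzymes meet peroxide from host oxidases as well as from metabolism.

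The 250 bases before the annotated start are shown for SOD3, which had the lowest shAPC/shScr ratio of the 9 genes at both days, for GPX3, the other secreted enzyme of the set, and for CAT, which was higher in shAPC at both days. They come from RefSeq on GRCh38.p14, on the strand of the gene and 5′ to 3′, and capitals mark the CAAT box CCAAT and the GC box GGGCGG on either strand.
SOD3 chr4:24795323-24795572 (+): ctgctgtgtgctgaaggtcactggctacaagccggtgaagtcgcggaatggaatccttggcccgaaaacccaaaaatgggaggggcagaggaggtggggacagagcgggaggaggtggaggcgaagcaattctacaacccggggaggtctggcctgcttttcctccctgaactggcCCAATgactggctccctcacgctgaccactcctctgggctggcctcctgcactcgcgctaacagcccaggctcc
GPX3 chr5:151020341-151020590 (+): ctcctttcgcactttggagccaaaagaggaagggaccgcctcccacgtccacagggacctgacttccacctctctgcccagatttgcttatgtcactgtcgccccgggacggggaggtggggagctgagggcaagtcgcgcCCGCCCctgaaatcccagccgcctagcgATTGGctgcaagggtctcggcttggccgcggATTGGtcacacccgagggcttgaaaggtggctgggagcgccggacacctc
CAT chr11:34438684-34438933 (+): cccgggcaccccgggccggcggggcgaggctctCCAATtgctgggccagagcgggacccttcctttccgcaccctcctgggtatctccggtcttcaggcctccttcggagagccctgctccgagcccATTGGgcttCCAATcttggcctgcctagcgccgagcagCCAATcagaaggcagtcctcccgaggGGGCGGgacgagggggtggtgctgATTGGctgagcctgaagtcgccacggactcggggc
None of these 3 windows overlaps an exon of GENCODE 44. The GPX3 and CAT windows end at the GENCODE 44 start of their genes. The SOD3 window ends at the RefSeq start, which lies inside the GENCODE 44 span of the gene (chr4:24789912-24800842), so it is not upstream of SOD3 in that annotation. The SOD3 window held 1 CAAT box and 0 GC boxes, the GPX3 window 2 and 1, and the CAT window 5 and 1. Among 35116 human promoter windows of the same length, 32.0% held a CAAT box and 42.6% a GC box. RefSeq windows matched 6 of the 9 genes (11 windows, with several starts for SOD2 and GPX4), and SOD1, PRDX1 and PRDX6 had none. In all 11 windows 0 matches were found, on either strand, to the TCF/LEF core CTTTGA (11.2% of all promoters), AP-1 TGANTCA (6.57%), the antioxidant response element TGACNNNGC (10.9%), the TATA box TATAAA (10.7%) or the NF-kB consensus (9.96%). A match or its absence describes these letters in this window and nothing about a factor.

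Barcodes with at least 200 genes, at least 500 UMIs (counted molecules) and under 5% of UMIs from mitochondrial genes were kept, and UMIs were added up per library and divided by that library's total to give CPM (UMIs of a gene per 1000000 UMIs). The 4 libraries kept 788 to 2600 cells and 28451455 to 39797418 UMIs. Median depth ran from 1330 UMIs per cell in shScr day 7 to 49685.5 in shAPC day 3, and the mitochondrial limit removed 51.3% of shAPC day 7 barcodes against 24.1% to 28.8% elsewhere. The matrices of both shScr libraries were written by Cell Ranger 3.0.2 and those of both shAPC libraries by 3.0.0, so the software version and the shRNA cannot be told apart. APC itself had 16.1 and 5.52 CPM in shScr and shAPC at day 3 and 19.1 and 6.61 CPM at day 7, or 34.4% and 34.6% of control. Of 8 epithelial markers, KRT20 and CDX2 were at 0, EPCAM, CDH1 and VIL1 had at most 2 UMIs in any library, and KRT8, KRT18 and KRT19 were present, with a summed level of 17.1 to 32.3 CPM. The 8 mesenchymal markers were all present and summed to 5991 to 7992 CPM. At day 7, 3 of these 8 were past 1.5-fold higher in shAPC (against 6.07% of all genes tested) and 0 were lower (against 7.91%). The log2 ratios were 0.68 for COL1A1, 1.18 for COL1A2 and 1.33 for COL3A1. The keratins moved unequally there, with KRT8 at 0.66, KRT19 at 0.97 and KRT18 at -0.77. At day 3, 1 of the 8 was higher (DCN, 0.75, against 24.7%), and KRT8, KRT18 and KRT19 were at 0.59, 0.76 and 0.74. Under TMM scaling 0 of these were past the fold higher at day 3 (against 6.83%), and 2 of the 8 mesenchymal markers were lower (against 8.05%). So 5 of the 8 epithelial markers were absent or nearly so, and what part these markers play in the results was not tested.

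SOD3, the secreted dismutase (ENSG00000109610, hg38 chr4:24789912-24800842), was the enzyme with the largest difference between shAPC and shScr at both days. Its level was 15.9 CPM (14.7 to 17.2) in shScr day 3, 7.50 CPM (6.62 to 8.46) in shAPC day 3, 28.8 CPM (27.0 to 30.8) in shScr day 7 and 4.53 CPM (3.79 to 5.39) in shAPC day 7, from 634, 262, 900 and 129 UMIs. Both shAPC libraries lay below both shScr libraries, and no 2 of the 4 intervals overlap. The shAPC/shScr ratio on the log2 scale came to -1.09 (-1.30 to -0.88) for day 3 and -2.67 (-2.95 to -2.40) for day 7, or 47.1% and 15.7% of control. Among genes with at least 100 UMIs in 1 of the 2 libraries, 40 of 10970 had a lower ratio at day 3 and 2 of 10293 at day 7. These are the contrasts on which the gene was picked. In bulk sums of this kind, fewer expressing cells and less RNA per cell cannot be told apart, and the next values take up the cells.

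**Figure D1:**
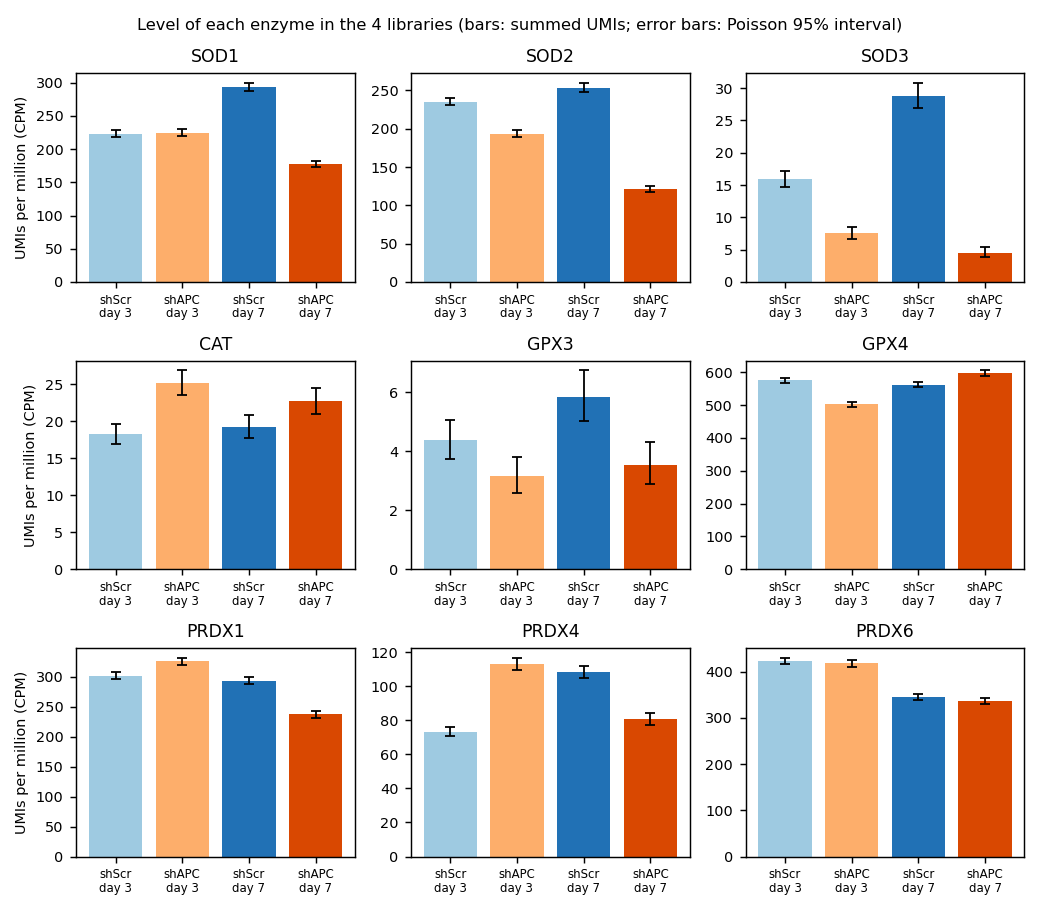
Level of each of the 9 enzymes in the 4 libraries, in CPM on axes that start at 0, with Poisson 95% intervals for counting error as error bars and 1 library per bar. SOD3 stands at 15.9 and 7.50 CPM in shScr and shAPC at day 3 and at 28.8 and 4.53 CPM at day 7, whereas PRDX6 stands at 424 and 418 CPM and at 345 and 337 CPM.

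SOD3 UMIs were spread unevenly over cells. At least 1 SOD3 UMI was found at day 3 in 25.8% of shScr cells (288 of 1116) and 17.1% of shAPC cells (135 of 788), and at day 7 in 15.8% (410 of 2600) and 5.95% (88 of 1478). Most such cells had 1 or a few UMIs, but a single cell held 39 of the 634 UMIs of shScr day 3, another 47 of the 262 of shAPC day 3 (17.9%), and another 122 of the 900 of shScr day 7 (13.6%). The highest cell of shAPC day 7 held 6 of 129. The next highest cells had 18, 9, 15 and 5 UMIs, so 1 cell stood apart in each of the first 3 libraries and none did in shAPC day 7. The 10 cells with the most SOD3 held 20.2%, 39.3%, 25.2% and 27.1% of its UMIs but 1.30% to 2.28% of all UMIs.

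**Figure D2:**
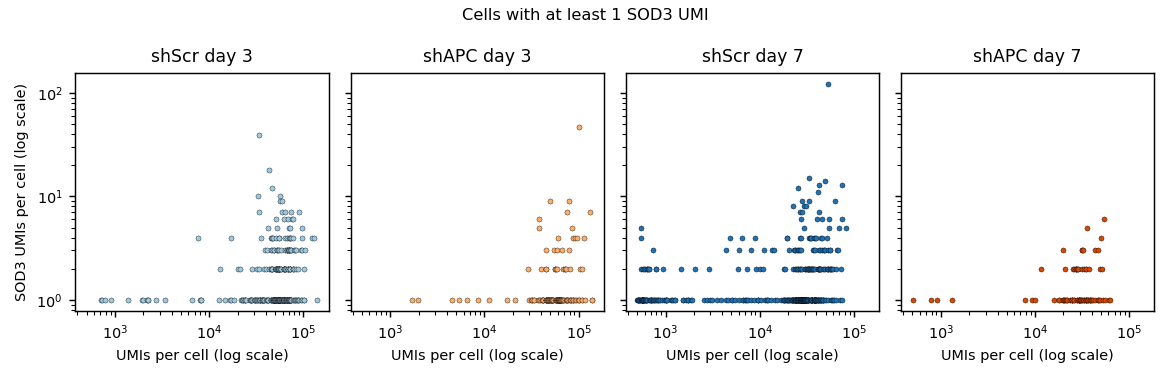
SOD3 UMIs against total UMIs for each kept cell with at least 1 SOD3 UMI, on log scales, 1 panel per library. Single cells at 39, 47 and 122 SOD3 UMIs stand above the rest in shScr day 3, shAPC day 3 and shScr day 7, while shAPC day 7 reaches 6.

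Without the highest SOD3 cell of every library, an alternative added after the data had been seen, the levels were 14.96, 6.17, 24.95 and 4.33 CPM and the log2 ratios -1.28 (-1.51 to -1.05) at day 3 and -2.53 (-2.81 to -2.25) at day 7. The direction and the order of the 4 libraries held. The shAPC day 3 cell with 47 UMIs also carries 1 of the 68 barcodes that occur in more than 1 library, and without those barcodes the day 3 ratio was -1.38. No caller for doublets was run. Without the 5% of cells with the most UMIs, where doublets would be found, the ratios were -1.48 and -2.58.

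Because depth differed between libraries, cells were also thinned to 2000 UMIs each, which left out 217 and 115 shallower cells of shScr and shAPC at day 3 and 1402 and 391 at day 7. A SOD3 UMI was then found at day 3 in 24 of 899 control cells (2.67%, 1.72 to 3.95) and in 10 of 673 with shAPC (1.49%, 0.715 to 2.72), and at day 7 in 55 of 1198 (4.59%, 3.48 to 5.93) and 6 of 1087 (0.552%, 0.203 to 1.20). At this depth the intervals overlap at day 3 and are apart at day 7. With thinning to 5000 UMIs the day 3 shares were 7.42% (5.71 to 9.44) in shScr and 3.41% (2.12 to 5.16) in shAPC, and those intervals are apart. All cells are of 1 line, so the share that free RNA would give in a cell type without SOD3 could not be measured.

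Within classes of cell depth at day 7, SOD3 was lower in shAPC in all 4. In cells of 500 to 2000 UMIs it had 102 CPM in shScr (107 UMIs) and 11.5 CPM in shAPC (4 UMIs), a log2 ratio of -3.14 (-5.04 to -1.74). In cells of at least 30000 UMIs it had 28.7 and 4.95 CPM, a log2 ratio of -2.54 (-2.91 to -2.18). At day 3 the class of at least 30000 UMIs gave -1.13 (-1.35 to -0.91), and the 3 shallower classes held 2 to 32 UMIs a library, with intervals that include 0. The control library thus had its highest SOD3 level, 102 CPM, in its shallowest cells, which numbered 1402 of 2600 and held 3.36% of its UMIs. Averaging each cell's CPM, which gives those cells their full weight, moved the day 7 log2 ratio to -3.48. The barcodes removed for mitochondrial UMIs, which entered no sum above, had 22.6 and 4.85 CPM of SOD3 in shScr and shAPC at day 3 and 44.3 and 4.31 CPM at day 7, with log2 ratios of -2.22 (-2.88 to -1.60) and -3.36 (-3.67 to -3.06).

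**Figure D3:**
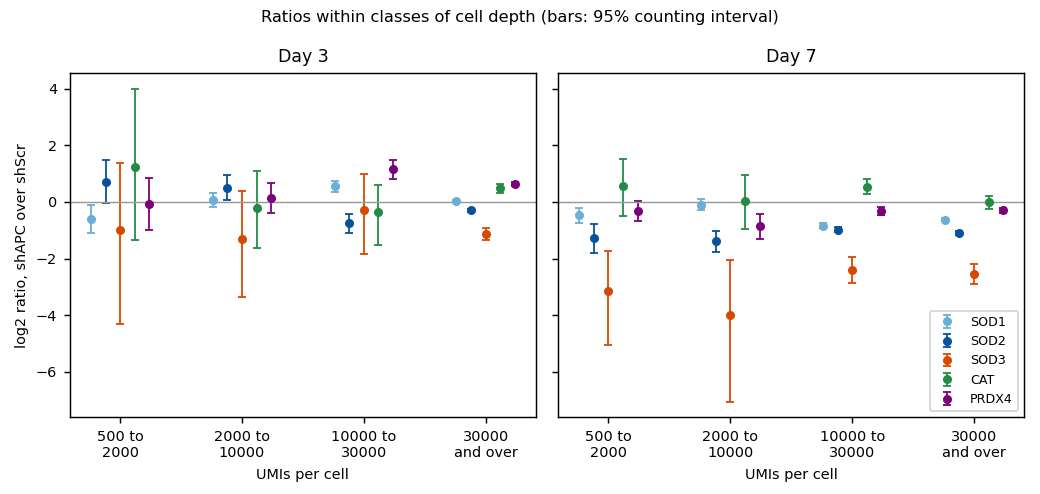
Log2 ratio of shAPC over shScr for SOD1, SOD2, SOD3, CAT and PRDX4 in 4 classes of UMIs per cell, at day 3 and day 7, with 95% counting intervals as error bars. SOD3 and SOD2 lie below 0 in all 4 classes at day 7, and at day 3 SOD2 is above 0 in the 2 shallower classes (with an interval that includes 0 in the shallowest) and below it in the 2 deeper ones.

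SOD2, the mitochondrial dismutase and a long-known target of NF-kB (ENSG00000112096, chr6:159669069-159762529 under this symbol in GENCODE 44), had 235 CPM in shScr day 3, 193 CPM in shAPC day 3, 254 CPM in shScr day 7 and 121 CPM in shAPC day 7. A 2nd feature row of the same symbol, ENSG00000285441, held 1 UMI in all and was added. Its shAPC day 7 level was the lowest of the 4 and less than that of its control by a log2 ratio of -1.07 (-1.13 to -1.01). The day 3 log2 ratio was -0.29 (-0.33 to -0.24). At day 7 the ratio was between -1.40 and -0.98 in all 4 depth classes. At day 3 it was 0.51 (0.06 to 0.96) in cells of 2000 to 10000 UMIs and -0.30 (-0.34 to -0.25) in cells of at least 30000. The day 3 value therefore holds for the deep cells that carry most UMIs. The barcodes over the mitochondrial limit, for an enzyme of the mitochondrion, had 301 and 146 CPM in shScr and shAPC at day 3 and 384 and 153 CPM at day 7. The highest single cell held 1.16% to 2.95% of SOD2 UMIs and 4.65% to 17.9% of SOD3 UMIs. SOD3 had far fewer UMIs, so these shares are not on a like footing.

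SOD1, the cytosolic dismutase (ENSG00000142168, chr21:31659666-31668931), had 223.5 CPM in shScr day 3, 224.9 CPM in shAPC day 3, 293.2 CPM in shScr day 7 and 177.5 CPM in shAPC day 7. The day 3 log2 ratio was 0.01 (-0.03 to 0.05) by total UMIs and -0.37 (-0.41 to -0.33) under TMM. By total UMIs it was -0.60 (-1.09 to -0.12) in cells of 500 to 2000 UMIs and 0.55 (0.35 to 0.74) in cells of 10000 to 30000, so the depth classes differed in sign. At day 7 the control was the highest and shAPC the lowest of the 4, with a log2 ratio of -0.72 (-0.77 to -0.67). That difference was -0.84 and -0.62 in cells of 10000 to 30000 and of at least 30000 UMIs, and -0.10 (-0.28 to 0.09) in cells of 2000 to 10000. All 3 dismutases were thus lower in shAPC than in shScr at day 7, by 1.65-fold for SOD1, 2.10-fold for SOD2 and 6.36-fold for SOD3. Reads of near-identical processed copies of SOD1, GPX and PRDX genes could be split or dropped in counting, so those levels are uncertain to that extent.

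CAT, the peroxisomal catalase (ENSG00000121691, chr11:34438934-34472060), was the enzyme that was higher in shAPC at both days by total UMIs. It had 18.3 CPM in shScr day 3, 25.1 CPM in shAPC day 3, 19.2 CPM in shScr day 7 and 22.7 CPM in shAPC day 7, from 727, 878, 600 and 645 UMIs. Both shAPC levels were above both shScr levels. The log2 ratios were 0.46 (0.32 to 0.60) at day 3 and 0.24 (0.08 to 0.40) at day 7. TMM scaling, which centres most genes, left 0.08 (-0.06 to 0.22) at day 3 and 0.23 (0.06 to 0.39) at day 7. The day 7 excess was 0.54 (0.29 to 0.80) in cells of 10000 to 30000 UMIs and -0.01 (-0.24 to 0.23) in cells of at least 30000, so it was not seen in the deepest cells. CAT UMIs were spread evenly, with at most 10 in a cell and at most 1.24% of a library's UMIs in 1 cell.

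GPX4, the glutathione peroxidase that reduces lipid peroxides in membranes and guards against ferroptosis (ENSG00000167468, chr19:1103982-1106791), had 575 CPM in shScr day 3, 502 CPM in shAPC day 3, 563 CPM in shScr day 7 and 597 CPM in shAPC day 7. The 4 levels lay close together, with shAPC lowest at day 3 and highest at day 7. Its log2 ratios by total UMIs were -0.20 (-0.23 to -0.17) for day 3 and 0.08 (0.05 to 0.11) for day 7. Under TMM the day 3 ratio was -0.58 (-0.61 to -0.55). The day 7 value was 0.01 with all deposited barcodes or a mitochondrial limit of 10%, and -0.08 (-0.13 to -0.04) in the barcodes over the 5% limit. GPX3, the secreted glutathione peroxidase (ENSG00000211445, chr5:151020591-151028988), was the sparsest enzyme, with 4.37, 3.15, 5.83 and 3.55 CPM from 174, 110, 182 and 101 UMIs in the same order. Both shAPC levels lay below both shScr levels, although the intervals of shAPC (2.59 to 3.79 and 2.89 to 4.31 CPM) overlap that of shScr day 3 (3.75 to 5.07 CPM), with log2 ratios of -0.47 (-0.83 to -0.12) at day 3 and -0.72 (-1.08 to -0.36) at day 7. Single cells held 19 of the 174 UMIs of shScr day 3 and 20 of the 182 of shScr day 7, but 3 in either shAPC library. Without the highest cell of each library the ratios were -0.35 (-0.72 to 0.02) and -0.59 (-0.97 to -0.22), so the day 3 interval then includes 0.

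The 3 peroxiredoxins differed from each other. PRDX4, the peroxiredoxin of the endoplasmic reticulum, which passes oxidising equivalents to protein folding (ENSG00000123131, chrX:23664262-23686397), had 73.1 CPM in shScr day 3, 113 CPM in shAPC day 3, 108 CPM in shScr day 7 and 80.8 CPM in shAPC day 7. It was higher in shAPC at day 3, with a log2 ratio of 0.63 (0.56 to 0.70), and lower at day 7, with -0.42 (-0.50 to -0.35). Under TMM the day 3 ratio was 0.25 (0.18 to 0.32). At day 7 the ratio was below 0 in all 4 depth classes, from -0.85 to -0.30. At day 3 it was 1.15 (0.81 to 1.48) in cells of 10000 to 30000 UMIs, 0.64 (0.56 to 0.71) in deeper ones and near 0 in both shallower classes, and -0.19 (-0.40 to 0.01) in the barcodes over the mitochondrial limit. PRDX1, the abundant cytosolic peroxiredoxin (ENSG00000117450, chr1:45510914-45542732), had 302, 326, 294 and 237.5 CPM in the same order. Its log2 ratio was 0.11 (0.07 to 0.15) at day 3, which turned to -0.27 under TMM, and -0.31 (-0.35 to -0.26) at day 7. In cells of 2000 to 10000 UMIs the day 7 direction was the opposite, with 748 CPM in shAPC and 566 CPM in shScr and a log2 ratio of 0.40 (0.24 to 0.56), while the other 3 classes lay between -0.29 and -0.13. PRDX6, the peroxiredoxin that acts with glutathione and also has phospholipase activity (ENSG00000117592, chr1:173477330-173488815), had 424, 418, 345 and 337 CPM. Its log2 ratios were -0.02 (-0.05 to 0.01) for day 3 and -0.03 (-0.07 to 0.01) for day 7 by total UMIs, both intervals including 0. TMM put day 3 at -0.40, and the mean over cells of CPM put day 7 at -0.43. At day 7 it was -0.34 (-0.58 to -0.11) in cells of 500 to 2000 UMIs and 0.10 (0.03 to 0.17) in cells of 10000 to 30000. The intervals of the other depth classes include 0 at day 7.

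**Figure D4:**
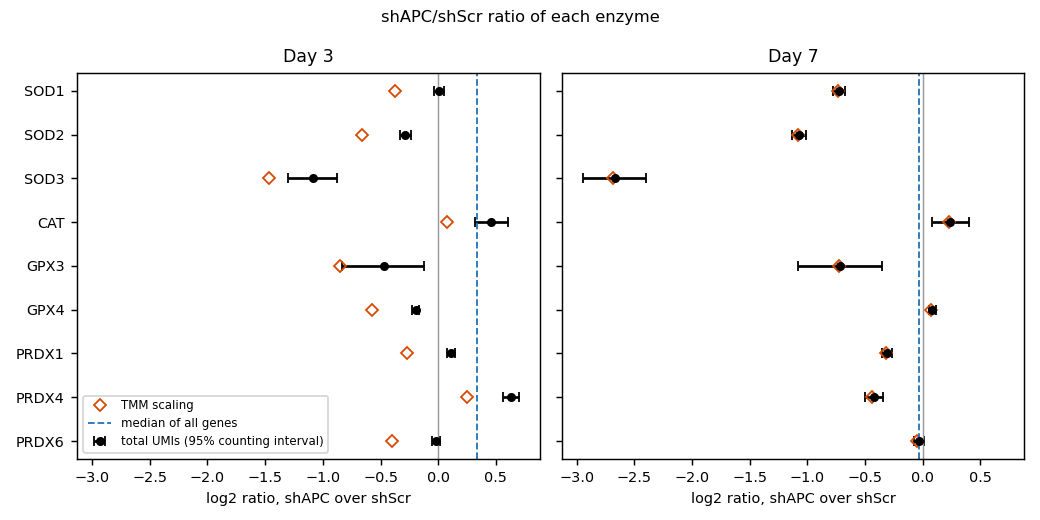
Log2 ratio of shAPC over shScr for each enzyme at day 3 and day 7. Black points and bars are ratios by total UMIs with 95% counting intervals, open diamonds are TMM-scaled ratios and the dashed line is the median of all genes (0.33 at day 3 and -0.04 at day 7). TMM moves every day 3 ratio by -0.38 and every day 7 ratio by -0.01, and SOD3 lies farthest to the left in both panels.

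The day 3 ratios depend on scaling. Over the 10970 genes with at least 100 UMIs in 1 of the 2 libraries the median log2 ratio was 0.33 at day 3, against -0.04 over 10293 genes at day 7, and TMM shifted day 3 ratios by -0.38 and DESeq2 size factors by -0.36. Relative to that median, day 3 values were -1.42 for SOD3, -0.81 for GPX3, -0.62 for SOD2, -0.53 for GPX4, -0.35 for PRDX6, -0.32 for SOD1 and -0.22 for PRDX1, and 0.13 for CAT and 0.30 for PRDX4. Thus 7 of the 9 enzymes lay below the middle of all genes at day 3 and CAT and PRDX4 above it. At day 7, relative to -0.04, the 3 dismutases, GPX3, PRDX4 and PRDX1 lay below and CAT and GPX4 above, and PRDX6 was at 0.00 on that scale. The gap between SOD3 and the median of the other 8 enzymes does not depend on library scaling, and was -1.08 at day 3 and -2.30 at day 7.

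Past 1.5-fold at day 3, SOD3 was lower (1 of 9, against 1.82% of all genes tested) and PRDX4 was higher (1 of 9, against 24.7%). At day 7 SOD1, SOD2, SOD3 and GPX3 were lower (4 of 9, against 7.91%) and 0 of 9 were higher (against 6.07%). GPX3 was no longer past the fold at day 7 with a mitochondrial limit of 10%, at -0.44, in cells of at least 2000 genes, at -0.55, or without the 5% of deepest cells, at -0.51. Past 2-fold, SOD3 was lower at day 3 (against 0.465% of all genes) and SOD2 and SOD3 at day 7 (against 1.87%), and 0 were higher at either day (against 6.25% and 1.77%). The set was chosen on these contrasts, so the shares are printed for scale and nothing is read from them. The median of the 9 enzymes was -0.02 at day 3 and -0.42 at day 7. Under TMM at day 3, SOD2, SOD3 and GPX3 were past 1.5-fold lower (3 of 9, against 8.05%) and 0 were higher (against 6.83%). With a minimum of 20 CPM in 1 of the 2 libraries, 7 of the 9 pass at day 3 (SOD3 and GPX3 do not) and 8 at day 7 (GPX3 does not). CAT passes at both days through shAPC alone, and SOD3 at day 7 through shScr alone.

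**Figure D5:**
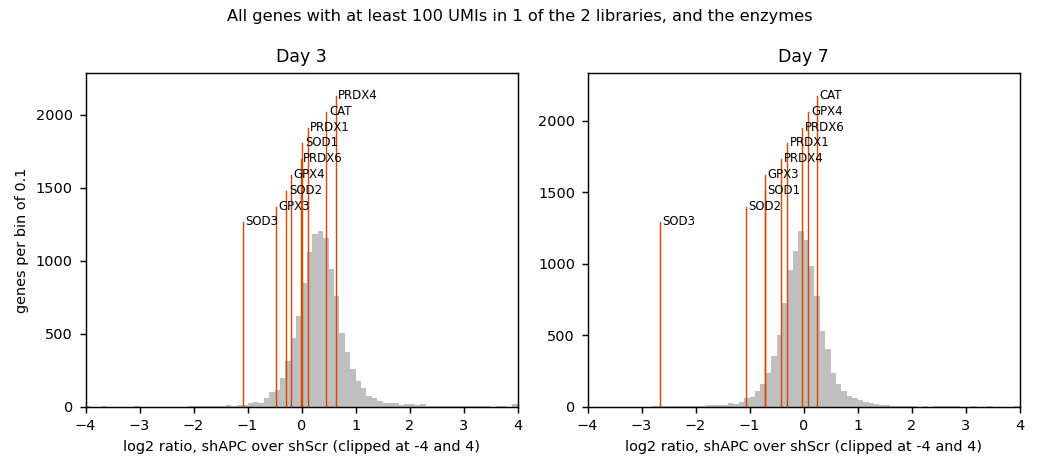
Histogram of log2 ratios of shAPC over shScr for all genes with at least 100 UMIs in 1 of the 2 libraries (10970 at day 3 and 10293 at day 7), in bins of 0.1, with values beyond -4 and 4 set to those limits. Vertical lines mark the 9 enzymes, and SOD3 sits at -1.09 in the left tail at day 3 and farther out at -2.67 at day 7, where the other 8 stay between -1.07 and 0.24.

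From day 3 to day 7 the arms were also set side by side, each contrast sharing its libraries with those above. In shScr the log2 ratio of day 7 over day 3 was 0.86 (0.71 to 1.00) for SOD3, 0.57 (0.50 to 0.64) for PRDX4, 0.39 (0.35 to 0.43) for SOD1 and 0.11 (0.07 to 0.15) for SOD2. In shAPC it was -0.73 (-1.04 to -0.42) for SOD3, -0.49 (-0.56 to -0.41) for PRDX4, -0.34 (-0.39 to -0.29) for SOD1 and -0.68 (-0.74 to -0.62) for SOD2. By total UMIs the control had more of these 4 transcripts at day 7 and shAPC had less. Under TMM the shScr values were 0.79, 0.51, 0.33 and 0.05 (0.003 to 0.09), in the same order. The shAPC values were then -0.42, -0.18, -0.04 (-0.09 to 0.01) and -0.37. By total UMIs in shScr and shAPC, GPX3 had 0.41 and 0.17, CAT 0.07 and -0.15, and PRDX1 -0.04 and -0.46. The median of all genes with at least 100 UMIs in 1 of the 2 libraries was 0.03 in shScr and -0.33 in shAPC. Under TMM, GPX3 had 0.35 and 0.48, CAT 0.01 and 0.16, and PRDX1 -0.10 and -0.15. The shAPC value of CAT thus changed sign, with an interval of 0.007 to 0.30. PRDX6 was lower at day 7 in both arms by total UMIs, at -0.30 in shScr and -0.31 in shAPC, of which TMM left -0.36 and -0.01. GPX4 was -0.03 in shScr and 0.25 in shAPC by total UMIs, and -0.09 and 0.55 (0.52 to 0.58) under TMM. Past 1.5-fold, SOD3 alone was higher in shScr (1 of 9, against 4.06% of all genes) and 0 were lower (against 4.23%), and in shAPC SOD2 and SOD3 were lower (2 of 9, against 25.4%) and 0 were higher (against 1.7%). Without the highest SOD3 cell of each library the SOD3 values were 0.74 and -0.51.

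The enzymes that supply or complete these reactions were read from lists, counted past 1.5-fold among genes with at least 100 UMIs in 1 of the 2 libraries, to be read beside the shares of all genes past the same fold (24.7% higher and 1.82% lower at day 3, and 6.07% higher and 7.91% lower at day 7). Of the other glutathione peroxidases and peroxiredoxins, 5 of 8 could be counted and 0 were past the fold at either day. PRDX5, PRDX2, GPX8 and PRDX3 had log2 ratios of 0.11, 0.51, 0.10 and 0.35 at day 3 and -0.04, -0.02, 0.34 and -0.01 at day 7. GPX2, the gut epithelial glutathione peroxidase, was at 0 UMIs in all 4 libraries, which allows at most 0.105 CPM in the library with the fewest UMIs, by a limit of 3 counts. The day 7 intervals of PRDX2 and PRDX3, the cytosolic and mitochondrial relatives of PRDX1, include 0 (-0.09 to 0.05 and -0.09 to 0.08).

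In the thioredoxin arm, 2 of 5 genes were higher at day 3 (against 24.7% of all genes) and 0 were past the fold at day 7. TXNIP, the thioredoxin inhibitor, had 68.9 CPM in shScr and 203 CPM in shAPC at day 3, which is 1.56 (1.49 to 1.62) on the log2 scale, and 94.5 and 79.9 CPM at day 7, or -0.24. The other was TXNRD2, at 0.61, named after its value was seen, which TMM took under the fold. TXN, the thioredoxin that peroxiredoxins spend, had 0.26 and -0.45 at day 3 and day 7. TXNRD1 had -0.15 and 0.09, and TXN2 0.18 and 0.11. In the glutathione arm, 0 of 9 genes were past the fold at day 3 by total UMIs. Under TMM 1 was lower at day 3 (GCLC, named after its value was seen, against 8.05% of all genes), and 1 was lower at day 7 by total UMIs. The day 7 gene was GLRX, glutaredoxin, with 487 CPM in shScr and 299 CPM in shAPC at day 7, which is -0.70 (-0.74 to -0.66) on the log2 scale, against -0.05 at day 3. GLRX3 and GLRX5 had -0.32 and -0.11 at day 7.

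The listed genes of copper uptake and delivery were not lower in shAPC at day 7 as SOD1 and SOD3 were. Of 4, CCS, the copper chaperone of SOD1, was past the fold at day 3, at 0.63 (0.47 to 0.80), but not under TMM, and 0 were at day 7. At day 7, ATOX1, SLC31A1, CCS and ATP7A, the copper pump that serves secreted enzymes, had 0.16, 0.21, 0.20 and 0.26. These are RNA levels, and whether copper supply bears on SOD1 or SOD3 was not tested. Selenoprotein synthesis showed 4 of 5 genes higher at day 3 (against 24.7% of all genes), with SECISBP2 at 0.98, PSTK at 1.17, EEFSEC at 0.72 and SEPSECS, named after its value was seen, at 1.48, of which TMM left 3 past the fold (against 6.83%). SEPHS2 was at 0.48. At day 7, 0 of 4 counted genes were past it, and the selenoproteins GPX4 and GPX3 had the values given above. Of 4 peroxisome import genes, PEX13 was past the fold higher at day 3, at 0.69, but not under TMM, and PEX7 lower at day 7, at -0.66 (-0.995 to -0.325), from 206 and 119 UMIs. PEX14 and PEX5 had 0.29 and 0.48 at day 7, beside 0.24 for CAT.

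Of 8 oxidase genes that make superoxide or peroxide, 1 reached 100 UMIs in a library. Respiratory genes were not among them. NOX1 was at 0 UMIs in all libraries, and NOX4, NOX5, CYBB and DUOX2 had at most 5. CYBA, the p22phox subunit of NADPH oxidases, had 174 and 270 CPM in shScr and shAPC at day 3 and 257 and 176 CPM at day 7, log2 ratios of 0.63 (0.59 to 0.68) and -0.54 (-0.59 to -0.49). DUOX1 and XDH had at most 61 UMIs in a library. CYBA was thus the 1 countable gene of the list, past the fold at day 3 by total UMIs but not under TMM.

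SOD3 is held at the cell surface and in the matrix by heparan sulfate proteoglycans and by FBLN5. Of 5 such partners, SDC4 was lower at day 3, at -0.80 (-0.88 to -0.72), and SDC4 and FBLN5 were lower at day 7. SDC4, a cell surface heparan sulfate proteoglycan, had 90.9 and 52.2 CPM in shScr and shAPC at day 3 and 82.5 and 32.0 CPM at day 7, a day 7 log2 ratio of -1.37 (-1.48 to -1.26). FBLN5, the fibulin that tethers SOD3, had 176 and 144 CPM at day 3 and 194 and 127 CPM at day 7, log2 ratios of -0.29 and -0.61 (-0.67 to -0.55). HSPG2 and GPC1 had 0.10 and 0.16 at day 7. Under TMM, SDC4, FBLN5, HSPG2 and SDC1 were past the fold lower at day 3 (4 of 5, against 8.05% of all genes). SDC1, named after its value was seen, had 185 and 128 UMIs in shScr and shAPC there.

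Of 8 NF-kB targets set beside SOD2, the counts past the fold were 5 higher with 0 lower for day 3 (against 24.7% and 1.82% of all genes), and 6 lower with 0 higher for day 7 (against 7.91% and 6.07%). Under TMM the day 3 counts were 3 higher (TNFAIP3, IL6 and BIRC3) and 1 lower (CCL2), against 6.83% and 8.05% of all genes. TNFAIP3, the NF-kB inhibitor, had 1.64 at day 3 and -0.40 at day 7, CXCL8 0.50 and -0.67, and CXCL1 0.45 and -0.30. CCL2 had -0.55 at day 3 and -1.46 at day 7, and was the gene of the 8 below 0 at both days by total UMIs, as SOD2 was. The median of the list was 0.78 at day 3 and -0.74 at day 7, beside -0.29 and -1.07 for SOD2.

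The genes whose pattern over the 4 libraries lay nearest to SOD3 and to SOD2 were sought among 5300 genes of at least 20 CPM in 1 library, by Euclidean distance of centred log2 (CPM + 1) values. With 4 points this is a description. Nearest to SOD3 were EFEMP1, SLC7A2, IL18, CD9 and SNRPD1, at distances of 0.374 to 0.547. EFEMP1, a fibulin of the extracellular matrix, had 28.5 and 11.5 CPM in shScr and shAPC at day 3 and 35.25 and 6.71 CPM at day 7, with the same order of the 4 libraries as SOD3. The log2 ratios of the 5 genes ran from -1.46 to -0.94 at day 3 and from -2.39 to -1.68 at day 7, so all were less low at day 7 than SOD3. Nearest to SOD2 were CLDN11, SWAP70, SLC43A3, TUBA1B and NAPG, at distances of 0.0805 to 0.155. CLDN11, a tight junction claudin, had 162.8 and 138.5 CPM at day 3 and 182 and 90.3 CPM at day 7, and the 5 genes had log2 ratios of -0.38 to -0.18 at day 3 and -1.04 to -0.94 at day 7.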

How the data were processed

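Single-cell RNA-seq (10x Genomics 3' libraries) was done on 4 cultures of HCEC 1CT cells, 1 library per group. The authors aligned reads to hg38 and deposited raw UMI counts per gene and barcode from Cell Ranger (3.0.2 in the shScr and 3.0.0 in the shAPC file headers, with STAR in the submitters' processing notes). The annotation release and cell calling settings were not given in the sources used here. The study went on to TMM with ComBat, imputation and clustering, of which TMM alone was used here, as an alternative. The study's set of cells was not recovered.

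The members and gene lists were chosen with earlier results of these data known. Counts were summed over barcodes of at least 200 genes, 500 UMIs and under 5% UMIs of the 13 mitochondrial genes, and scaled by their total (Python 3.11.15, numpy 2.4.6, scipy 1.17.1). Levels have exact Poisson, shares exact binomial (Clopper-Pearson) and ratios exact conditional binomial 95% intervals, without a pseudocount. PCR duplicates were collapsed by the UMIs, but intervals cover counting error only. The limit for a count of 0 was 3 counts. Ratios of all genes used genes of at least 100 UMIs in 1 of the 2 libraries, a background chosen after the data had been seen, with at least 20 CPM and a pseudocount of 1 CPM as the planned form. TMM factors came from edgeR 4.0.16 and size factors from DESeq2 1.42.0 in R 4.3.3, for scaling alone. Thinning used a fixed seed. The code was tested on simulated data. Doublets were not removed. Named genes were all members, APC, the 4 genes of highest mean CPM in each list and the 5 nearest to SOD3 and to SOD2, and others are named with a remark. The plan spoke of 10 members and of 9 enzymes beside SOD3, which became 9 and 8 because GPX1 was not analysed here. 1 gene of the glutathione list is not reported here.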

Additional observations from a re-analysis of the deposited data

Results flagged for a closer look

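PRDX4, PRDX1 and GPX4 had shAPC/shScr ratios of opposite sign at day 3 and day 7, with both counting intervals off 0, and each group held 1 library, so the difference between the days was not tested. The log2 ratio of PRDX4 was 0.63 at day 3 and -0.42 at day 7. Its day 3 value was 0.25 (0.18 to 0.32) under TMM and -0.19 (-0.40 to 0.01) in the barcodes over the mitochondrial limit. The log2 ratio of PRDX1 was 0.11 and -0.31, and its day 3 sign turned under TMM and other scalings. GPX4 went the other way, with -0.20 at day 3 and 0.084 at day 7, but its day 7 value was 0.0081 with all deposited barcodes and -0.084 in the barcodes over the mitochondrial limit.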

How the results depend on the processing

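Each group held 1 library, so leaving out a replicate was not possible. No paired analysis was possible because each group held 1 library and no test was run. SOD3 was lower in shAPC at both days under all 11 alternatives, from -1.48 to -1.08 at day 3 and from -3.48 to -2.51 at day 7, and SOD2 was lower likewise, from -0.67 to -0.07 and from -1.16 to -0.98. SOD3 at day 3 moved beyond its counting interval to -1.47 under TMM, -1.45 with DESeq2 size factors, -1.36 relative to the median of genes of at least 20 CPM, -1.43 as a mean over cells, -1.48 without the 5% of cells with the most UMIs and -1.38 without shared barcodes. Its gap to the other enzymes at day 3 was -1.43, -1.35 and -1.32 without the 5%, without shared barcodes and as a mean over cells. As a mean over cells at day 7, SOD3 was at -3.48, its gap at -2.81 and the median of the enzymes at -0.77. That median was -0.34 in cells of at least 2000 genes and -0.33 relative to the median of genes of at least 20 CPM. The day 3 median was -0.40 under TMM, -0.38 with DESeq2 size factors, -0.30 relative to all genes, -0.13 with totals without mitochondrial and ribosomal protein genes and -0.13 as a mean over cells.

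PRDX1 at day 3 changed sign to -0.27 under TMM, -0.25 with DESeq2 size factors, -0.17 relative to all genes, -0.0033 without mitochondrial and ribosomal totals and -0.065 as a mean over cells. Enzymes past 1.5-fold lower at day 3 numbered 3 under TMM and under DESeq2 size factors. They numbered 2 relative to the median of genes of at least 20 CPM, where SOD2 was at -0.56, and without mitochondrial and ribosomal totals. The 1 enzyme past it higher, PRDX4, became 0 in those 4 settings, with all barcodes, with a mitochondrial limit of 10%, without the 5% of deepest cells and without shared barcodes. As a mean over cells the 1 enzyme past it higher was CAT, at 0.62, and PRDX4 was at 0.34. The 4 enzymes past it lower at day 7 became 3 with a mitochondrial limit of 10%, in cells of at least 2000 genes and without the 5% of deepest cells, where GPX3 was at -0.44, -0.55 and -0.51, and 5 as a mean over cells, with PRDX4 at -0.77. The thinned SOD3 shares differed by -1.18 percentage points at day 3 and -4.04 at day 7, by -4.01 and -7.46 at 5000 UMIs and by -8.68 and -9.82 unthinned. Genes past 2-fold numbered 222 at day 3 and 117 at day 7 with at least 20 CPM, 42 and 34 with at least 100 CPM, 528 and 299 with no minimum, and 737 and 374 with at least 100 UMIs and no pseudocount, added after the data had been seen. Of the differences between settings the cause was not tested, except that stricter minima test fewer genes. Depth limits GPX3 and, in shAPC day 7, SOD3 (129 UMIs), and the spread between cultures is unknown.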

Other observations

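PRDX1 and SOD1 had the most closely related counts over cells among the 36 pairs of enzymes in shScr day 7 after thinning to 5000 UMIs, with a Spearman rho of 0.342 over 1036 cells of 1 library, and 0.252, 0.225 and 0.248 over 809, 616 and 994 cells of shScr day 3, shAPC day 3 and shAPC day 7. The cells share a library, and thinning evens the UMIs counted but not differences tied to the depth before thinning. In shScr day 7, SOD1 had 519 CPM in cells of 2000 to 10000 UMIs and 269 CPM in cells of 10000 to 30000. PRDX1 had 566 and 234 CPM there. What part depth plays in these rho values was not tested, and they are given as a description. SOD2 and SOD3 had 0.0622 and 0.0618 in shScr and shAPC at day 3 and 0.134 and 0.0511 at day 7, weak values in sparse counts from which nothing is read.

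Barcodes removed for mitochondrial UMIs had, like the kept cells, less SOD1, SOD2 and GPX3 in shAPC at day 7, with log2 ratios of -0.72, -1.33 and -0.85. PRDX1 was at 0.03 (-0.03 to 0.10) and PRDX6 at 0.17 (0.11 to 0.23) there, and CAT at 0.58 (0.39 to 0.77), above its 0.24 in kept cells. SOD1 at day 3 was -0.41 in those barcodes against 0.01 in kept cells.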
